A study of Mus musculus with 16 samples.

Results

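Among mouse macrophages given lipopolysaccharide (LPS), the cells with low side scatter held a set of transcripts at a lower level than untreated cells, than ungated LPS-treated cells and than LPS-treated cells with high side scatter. These genes are described here. A member had a mean of at least 5 CPM (counts as a rate of the library total after edgeR's TMM scaling) in untreated cells and a mean in low-scatter cells of at most 0.6 times that of each of the other 3 groups. Of 12589 genes that passed the low-count filter, 9517 reached the minimum in untreated cells, low-scatter cells had the lowest of the 4 means in 2406 of those, and 86 met both limits. P2ry2, Fgr, Cd247, Tnip1 and Gdf15 and loci without a gene name were left out by the rule. Of these only P2ry2 had met the limits, so 85 members remained. The members were chosen by the CPM means of low-scatter cells against each other group, so those values are given as a description without a test.

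The cells were iBMDM MyD88-AGF, a line of immortalised mouse bone-marrow-derived macrophages with the genotype label MyD88-AGF WT, which all 4 groups share. Untreated cells and LPS-treated cells (10 ng/mL for 6 h) were run through the sorter without a gate, and the second of these is called the LPS pool. LPS-treated cells were also sorted into a high side scatter gate, called responders, and a low side scatter gate, called bystanders. The gated cells were collected before the ungated ones, so collection order and gating cannot be told apart in comparisons with the pool or with untreated cells. Each group had 4 libraries. The labels name 1 cell line and do not say whether the replicates were separate cultures, so the spread behind each p-value is that among these libraries and could be technical.

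Library totals ran from 15287344 to 25193162 counts. Macrophage identity markers summed to between 3564 and 4776 CPM in every library, with Csf1r, Lyz2, Cd68 and Itgam high and Cd163 at 0. Of 12 lymphocyte markers, 8 were at 0 in all 16 libraries. Of 12 neutrophil markers 3 were at 0 throughout, Ly6g among them, and 10 stayed under 1 CPM. They summed to 0.462 to 0.906 CPM in untreated cells, 0.456 to 0.817 in bystanders, 4.51 to 5.72 in the LPS pool and 4.64 to 7.25 in responders, and the 2 that passed the filter, Mmp8 and S100a8, were called higher in the pool and in responders than in untreated cells. Fibroblast markers, of which none was at 0 throughout, summed to 7.43 to 31.5 CPM in untreated cells, 3.86 to 112 in the pool, 2.88 to 80.8 in bystanders and 10.2 to 32.6 in responders. Among them Col1a1, a collagen, was at 73.5 CPM in replicate 3 of the pool and 53.5 CPM in replicate 3 of bystanders, with 1.68 to 18.2 CPM in the other libraries. Without that bystander library the rule took 85 genes, 82 of them shared. Dendritic cell markers summed to 243 to 251 CPM in bystanders and to 51.1 to 101 CPM in the other groups. Nearly all of that sum was Clec10a, a lectin that macrophages also make, while Flt3 was at or near 0. The mitochondrial share of counts was 1.84 to 1.91% in bystanders, 1.96 to 1.98% in untreated cells and 1.41 to 1.47% in the LPS pool and responders. Stmn2, a neuronal transcript, exceeded 1 CPM in 6 libraries, which were replicate 1 of untreated cells, replicates 3 and 4 of the LPS pool, replicates 3 and 4 of bystanders and replicate 1 of responders. The part of these differences in the results was not tested, except that the members are given below for both sets of libraries.

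As background, LPS binds Toll-like receptor TLR4, which signals from the cell surface through the adaptor MyD88 and from endosomes through the adaptors TRAM and TRIF. Both routes turn on NF-kappaB and MAP kinases, and the transcripts of many cytokines and feedback inhibitors rise, while others fall. Many of the regulators of that response, such as IkappaB proteins, immediate-early factors and transcriptional repressors, are made from short-lived transcripts, so that their level follows recent transcription closely.

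Promoter sequence is shown for 3 members. Nfkbie and Nr4a1, an immediate-early factor, were both called higher in the pool than in untreated cells and were highest in responders. Cd3eap was the 1 member called lower in responders than in the pool. Each stretch runs from base -250 to base -31 before a RefSeq transcript start on GRCm38.p6, in the direction of transcription, and holds 220 bases. For Nfkbie (chr17:45555450-45555669, plus strand) the capitals mark a match to the kappaB consensus, for Nr4a1 (chr15:101266596-101266815, plus strand) the 4 copies of TGCGTCA, a variant of the cyclic AMP response element, and for Cd3eap (chr7:19359514-19359733, minus strand) the E-box CACGTG.
Nfkbie: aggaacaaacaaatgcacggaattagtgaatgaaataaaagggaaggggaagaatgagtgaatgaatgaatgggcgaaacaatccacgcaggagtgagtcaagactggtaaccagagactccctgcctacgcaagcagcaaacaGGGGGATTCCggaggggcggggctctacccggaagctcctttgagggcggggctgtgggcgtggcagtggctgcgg
Nr4a1: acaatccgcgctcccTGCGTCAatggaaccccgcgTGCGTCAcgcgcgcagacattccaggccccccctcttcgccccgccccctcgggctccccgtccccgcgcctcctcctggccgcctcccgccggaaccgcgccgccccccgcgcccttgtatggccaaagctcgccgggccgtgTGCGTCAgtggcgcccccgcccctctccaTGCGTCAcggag
Cd3eap: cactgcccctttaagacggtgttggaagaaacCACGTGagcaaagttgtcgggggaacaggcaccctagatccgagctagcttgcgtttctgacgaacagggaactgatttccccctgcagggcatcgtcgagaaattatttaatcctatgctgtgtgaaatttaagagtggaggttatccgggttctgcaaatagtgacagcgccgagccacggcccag

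RefSeq windows of 300 bases (250 before to 50 after the start) were found for 69 members, 87 windows in all, and for 7665 genes with an untreated mean of at least 5 CPM, 9777 windows in all. On either strand TGCGTCA was in 5.75% of member windows and 4.06% of all windows, and the kappaB consensus was in 8.05% and 10.5%. CACGTG was in 13.8% and 10.7%, the GC box GGGCGG in 67.8% and 64.7%, and the ETS site GGAAGTG in 5.75% and 16.1%. The AP-1 site TGANTCA was in 2.3% and 4.77%, TGACGTCA in 0% and 3.27%, and the CArG box of serum response elements in 2.3% and 1.21%. A few windows make up the member shares, for example 5 with TGCGTCA and 7 with the kappaB consensus. Sites other than those in capitals were left unmarked in the stretches, such as the AP-1 site TGAGTCA in that of Nfkbie. The kappaB consensus also had 1 match in the Nr4a1 window and 3 in that of Acer2, which was lower in the pool. A match describes letters in the window and not a bound site.

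The ratio of the bystander mean to the lowest of the other 3 means ran from 0.329 for Nol4l to 0.599 for Zfp219, with a median of 0.538. In 31 of the 85 members it was 0.5 or less. The lowest of the other groups was untreated cells for 32 members, the LPS pool for 28 and responders for 25. The highest of the 4 means was in untreated cells for 41 members, in responders for 39 and in the LPS pool for 5. By the pool calls given below, the set holds both genes lower and genes higher in the LPS pool than in untreated cells. Bystanders lay below both kinds, as the rule requires. In 84 of the 85 members all 4 bystander libraries lay below all 12 others, against 10.2% of all genes tested. The exception was Acer2, where 1 responder library fell within the bystander range. All 85 were called lower in bystanders than in untreated cells (32.9% of all genes were), than in the pool (32.9%) and than in responders (34.7%), and nothing is read from these counts, since the rule used those contrasts. In such bulk libraries, fewer cells with a transcript and less of it per cell cannot be told apart.

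**Figure D1:**
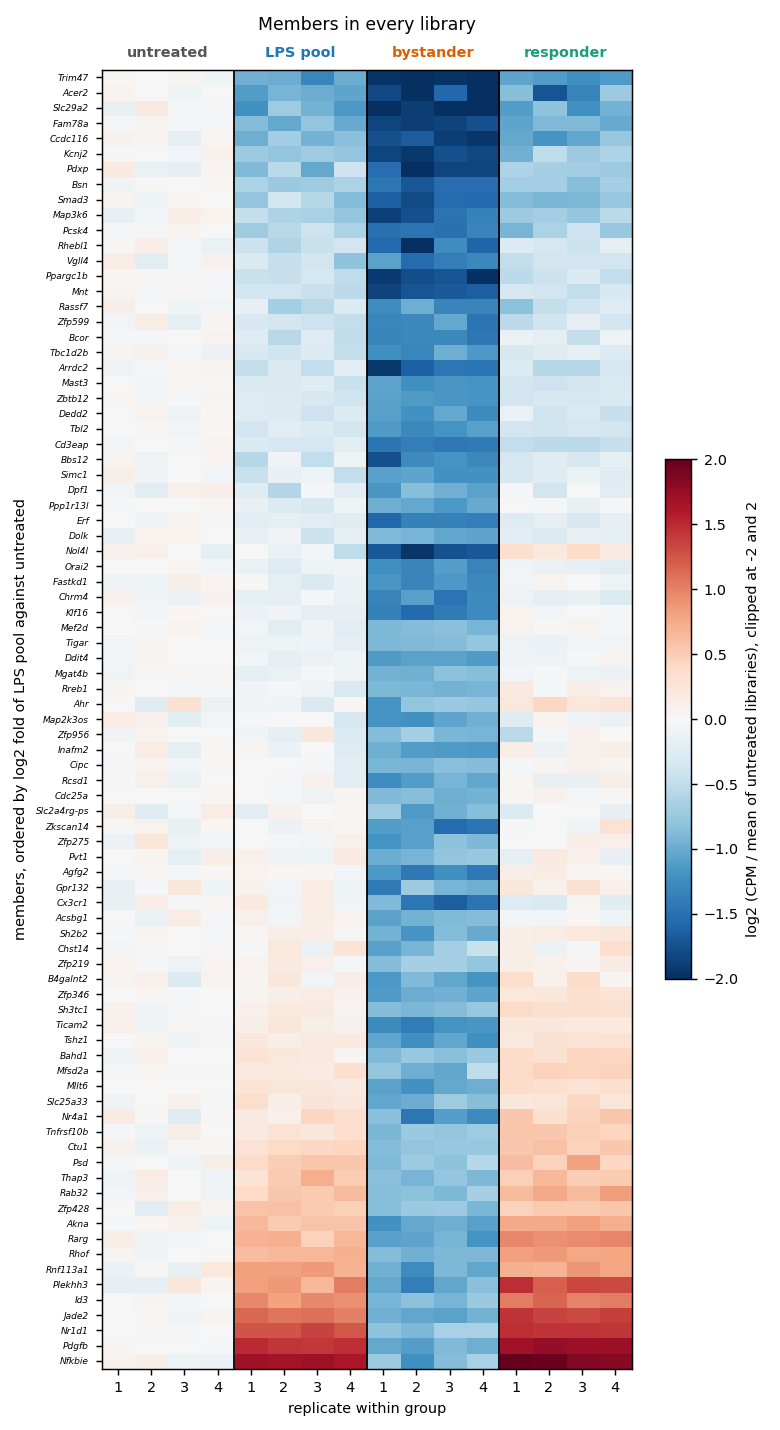
Level of each of the 85 members (rows) in each of the 16 libraries (columns, by group and replicate), as the log2 ratio of its CPM to the mean of the 4 untreated libraries, with rows ordered by the log2 fold of the LPS pool against untreated cells. The bystander block is blue in every row, while the pool and responder blocks run from blue at the top (Trim47) to red at the bottom (Nfkbie).

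By roles assigned after the members were known, 32 of the 85 were regulators of transcription or chromatin, 21 were receptors, ligands or signalling proteins, 10 were enzymes, 5 were channels or transporters, 3 were non-coding transcripts and 14 had another or an uncertain role. The share of each role among all genes was not counted. Among the 14 members with the lowest ratio, Mnt, Klf16, Erf, Nr4a1, Tshz1, Zkscan14 and Ppargc1b are regulators of transcription. Zinc-finger gene symbols (Zfp, Zkscan, Zbtb or Klf with a number), counted after they had been seen among the members, made up 9 of 85 members (10.6%) and 257 of the 9517 genes with at least 5 CPM in untreated cells (2.7%).

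Mnt (chr11:74830806-74845725) encodes a repressor that pairs with MAX and opposes MYC. Its values were 44.4, 41.8, 43.3 and 41.7 CPM in the untreated libraries, 32.9, 32.7, 31.4 and 29.6 CPM in the LPS pool, 33.9, 32.8, 30.5 and 34.4 CPM in responders and 11.9, 12.9, 13.3 and 13.7 CPM in bystanders. Untreated libraries were the highest and bystander libraries the lowest, without overlap, while the pool and responders overlapped. Against untreated cells Mnt was 1.35-fold lower in the pool (log2 -0.43, SE 0.05, adjusted p = 8.23e-12, edgeR quasi-likelihood test). Erf (chr7:25242560-25251104), an ETS-family repressor held in check by ERK phosphorylation, gave 84.9, 80.4, 88.1 and 82.7 CPM in the untreated libraries, 72.7, 73.7, 72.5 and 71.2 CPM in the LPS pool, 70.4, 73.6, 67.2 and 73.4 CPM in responders and 28.3, 32.9, 33.1 and 32.1 CPM in bystanders. It had the same order as Mnt, 1.16-fold lower in the pool than in untreated cells (adjusted p = 8.88e-07). Ppargc1b (chr18:61291445-61400756), the coactivator PGC-1beta of mitochondrial gene expression, was at 9.56, 9.4, 9.16 and 9.06 CPM in the untreated libraries, 6.82, 6.79, 7.26 and 6.55 CPM in the LPS pool, 6.47, 6.86, 7.62 and 6.63 CPM in responders and 2.46, 2.73, 2.79 and 2.34 CPM in bystanders. Here too untreated cells were highest, and the pool (1.36-fold lower, adjusted p = 5.07e-05) and responders overlapped.

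Klf16 (chr10:80567121-80577296) and Zkscan14 (chr5:145194946-145204164) are zinc-finger factors. Klf16 read 47.5, 45.9, 48.9 and 47.6 CPM in the untreated libraries, 43.7, 45, 41.4 and 42.3 CPM in the LPS pool, 49.6, 45.9, 47.8 and 46.7 CPM in responders and 18.6, 16.1, 17.8 and 19.7 CPM in bystanders. Bystanders stood far below the rest, and the pool lay just under untreated cells and responders. The pool difference was 1.1-fold (log2 -0.13, SE 0.04, adjusted p = 0.00619), while the log2 difference of responders from untreated cells was 0.00 (SE 0.04, adjusted p = 0.969). Restricted to libraries without neural transcripts, the pool difference was -0.0919 with adjusted p = 0.126. Zkscan14 read 9.56, 9.85, 8.49 and 9.68 CPM in the untreated libraries, 9.41, 8.69, 9.87 and 9.5 CPM in the LPS pool, 9.18, 9.33, 8.86 and 11.4 CPM in responders and 4.35, 4.42, 3.22 and 3.36 CPM in bystanders. Its 3 other groups overlapped, with log2 -0.01 (SE 0.10) for the pool and 0.04 (SE 0.09) for responders against untreated cells. Zkscan14 was called lower in both with library totals alone, at -0.34 in the pool (adjusted p = 0.00117) and -0.34 in responders (adjusted p = 0.000801), and so was Klf16 in responders, at -0.38 (adjusted p = 5.76e-12).

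Nr4a1 (chr15:101253902-101274795), the orphan nuclear receptor whose promoter stretch is shown above, had values of 8.88, 8.05, 6.69 and 8.1 CPM in the untreated libraries, 8.95, 8.5, 10.7 and 9.92 CPM in the LPS pool, 11.5, 9.88, 11 and 11.6 CPM in responders and 4.47, 2.91, 3.69 and 3.28 CPM in bystanders. Responder libraries all lay above untreated libraries, the pool overlapped both, and bystanders were lowest. Responders were 1.38-fold above untreated cells (log2 0.47, SE 0.10, adjusted p = 1.69e-05). For the pool the log2 difference was 0.25 (adjusted p = 0.0222), and adjusted p was 0.108 without untreated replicate 3 and 0.109 without LPS pool replicate 3. Tshz1 (chr18:84011627-84087708), a zinc-finger homeobox factor, was measured at 30.9, 32.2, 29.3 and 31.4 CPM in the untreated libraries, 36.2, 33.5, 35 and 35.6 CPM in the LPS pool, 35.5, 38.4, 37.3 and 38 CPM in responders and 15.1, 13.3, 15.1 and 13.2 CPM in bystanders. Pool and responder libraries lay above all untreated libraries, by 1.13-fold (adjusted p = 0.00136) and 1.2-fold (adjusted p = 1.39e-06). With library totals alone in place of TMM, Nr4a1 and Tshz1 in the pool and Tshz1 in responders turned to lower than untreated, at -0.0762, -0.15 and -0.12 on the log2 scale, and the responder difference of Nr4a1 shrank to 0.0819 (adjusted p = 0.43).

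**Figure D2:**
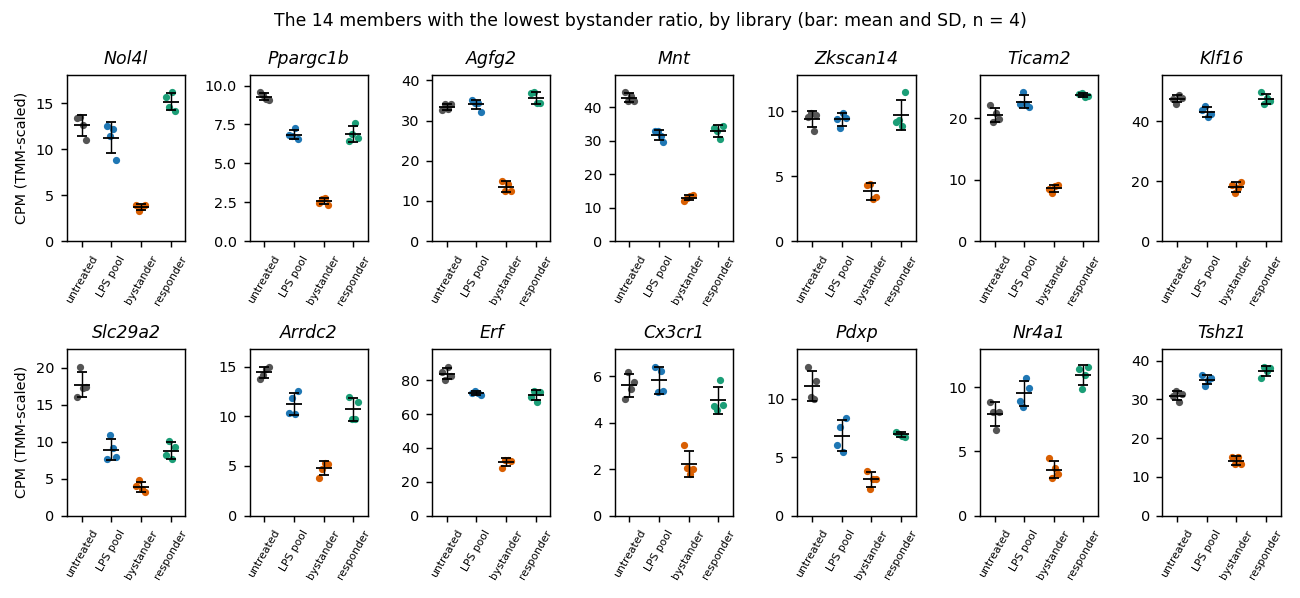
CPM of the 14 members with the lowest bystander ratio in each library (points), with the mean and SD of the 4 libraries of each group (bars), each panel on its own axis from 0. In all 14 panels the bystander points lie below every other point, while the order of the other 3 groups differs from gene to gene.

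Among signalling genes, Ticam2 (chr18:46558231-46574533) encodes TRAM, the adaptor that links TLR4 to TRIF. It stood at 22.1, 19.3, 20.8 and 19.95 CPM in the untreated libraries, 22.4, 24.2, 22.3 and 21.8 CPM in the LPS pool, 24, 24.1, 23.5 and 23.6 CPM in responders and 8.47, 7.82, 9.0 and 9.14 CPM in bystanders. Bystander libraries were all below 10 CPM, with a mean 0.419 times that of untreated cells and 0.362 times that of responders. Responders lay above all untreated libraries (1.16-fold, adjusted p = 0.00104), and the pool overlapped both (log2 0.15, adjusted p = 0.0265). The pool value lost the threshold when some libraries were left out: adjusted p was 0.0838 without untreated replicate 2, 0.0601 without untreated replicate 4 and 0.115 without LPS pool replicate 2. With library totals alone both differences turned negative (-0.18 and -0.17). The exons of Ticam2 overlap those of Tmed7 on the same strand, and Tmed7 did not share the pattern, with mean levels of 127 CPM in untreated cells, 131 in the pool, 131 in bystanders and 141 in responders.

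Cx3cr1 (chr9:120048683-120068296) encodes the fractalkine receptor and is a marker of tissue macrophages. Its values were 5.03, 6.16, 5.45 and 5.76 CPM in the untreated libraries, 6.41, 5.32, 6.21 and 5.35 CPM in the LPS pool, 4.71, 4.54, 5.82 and 4.76 CPM in responders and 3.03, 2.06, 1.79 and 2.01 CPM in bystanders. Untreated cells, pool and responders overlapped, and no test among them passed the threshold (adjusted p = 0.713 for the pool and 0.19 for responders, each against untreated cells). It was called lower than in untreated cells with library totals alone, in the pool (log2 -0.27, adjusted p = 0.0388) and in responders (-0.56, adjusted p = 4.38e-05). Arrdc2 (chr8:70835129-70839720), an alpha-arrestin, was found at 13.8, 14.2, 14.8 and 15 CPM in the untreated libraries, 10.4, 11.8, 10.2 and 12.5 CPM in the LPS pool, 12, 9.73, 9.76 and 11.4 CPM in responders and 3.78, 4.67, 5.32 and 5.25 CPM in bystanders. It fell 1.29-fold in the pool (adjusted p = 0.000141) and 1.35-fold in responders (adjusted p = 6.25e-06), where the libraries overlapped each other, and was lower again in bystanders.

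Slc29a2 (chr19:5019057-5031972) encodes an equilibrative nucleoside transporter, and Pdxp (chr15:78912160-78919517) a phosphatase of the active form of vitamin B6. Slc29a2 was at 16, 20.2, 17.3 and 17.4 CPM in the untreated libraries, 7.68, 10.9, 9.19 and 7.95 CPM in the LPS pool, 8.13, 10.1, 7.67 and 9.24 CPM in responders and 3.95, 4.79, 3.61 and 3.16 CPM in bystanders. It had the lowest ratio of bystanders to untreated cells of all members, 0.219, and was already 1.97-fold lower in the pool (log2 -0.97, SE 0.10, adjusted p = 5.7e-12). Pdxp was at 12.7, 10.1, 9.93 and 11.5 CPM in the untreated libraries, 6.01, 7.59, 5.46 and 8.3 CPM in the LPS pool, 7.18, 7.01, 6.82 and 6.72 CPM in responders and 3.84, 2.3, 3.1 and 3.12 CPM in bystanders. It likewise fell in the pool, 1.62-fold (adjusted p = 6.47e-08), and pool and responders overlapped.

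The lowest ratio of all belonged to Nol4l (chr2:153407461-153530239), whose function is not well known. Nol4l gave 13.4, 13.5, 12.6 and 11 CPM in the untreated libraries, 12.5, 11.5, 12.2 and 8.87 CPM in the LPS pool, 15.7, 14.6, 16.2 and 14.2 CPM in responders and 3.89, 3.27, 3.76 and 3.89 CPM in bystanders. Responder libraries lay above all untreated ones (1.2-fold, adjusted p = 0.00256), and the pool overlapped untreated cells (log2 -0.15, adjusted p = 0.112, and 0.0345 without untreated replicate 4). With library totals alone the responder difference became -0.12 (adjusted p = 0.182) and the pool difference -0.48 (adjusted p = 1.58e-06). Agfg2 (chr5:137650463-137684806), an ArfGAP-family protein, was present at 32.7, 34.1, 32.8 and 34.1 CPM in the untreated libraries, 35.1, 34.3, 34.3 and 32.2 CPM in the LPS pool, 36.7, 37, 34.3 and 34.4 CPM in responders and 15.1, 12.4, 14.3 and 12.4 CPM in bystanders. Its untreated, pool and responder libraries overlapped, with log2 0.03 (SE 0.05) for the pool and 0.09 (SE 0.05) for responders against untreated cells. It was called lower in both with library totals alone, at -0.30 (adjusted p = 2.59e-07) and -0.29 (adjusted p = 2.2e-07).

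The rule set no limit between the LPS pool or responders and untreated cells, and those contrasts were tested. It did bound each of these levels from below by the bystander mean. The ungated pool also holds low-scatter cells, so the choice of members may itself lower the pool against untreated cells. How far the choice shaped these calls was not tested. In the LPS pool 24 members were higher than in untreated cells (28.2% of members, with 34.1% of all genes), 37 were lower (43.5%, with 37.8%) and 24 were not called. In responders 29 were higher than in untreated cells (34.1%, with 36.5%), 33 were lower (38.8%, with 38.5%) and 23 were not called. These shares lie near the background, and so do the medians: the median log2 difference of the pool from untreated cells was -0.09 over members and -0.03 over all genes, and that of responders was -0.02 over both. The 2 contrasts share the untreated libraries. Side by side, 24 members were called higher in both, 33 lower in both, 5 higher in responders only and 4 lower in the pool only, and 19 were called in neither. With library totals alone the pool counts became 13 higher and 66 lower and the responder counts 15 and 59, as the share of higher calls over all genes moved from 47.4% to 21.6% for the pool and from 48.7% to 21.7% for responders.

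**Figure D3:**
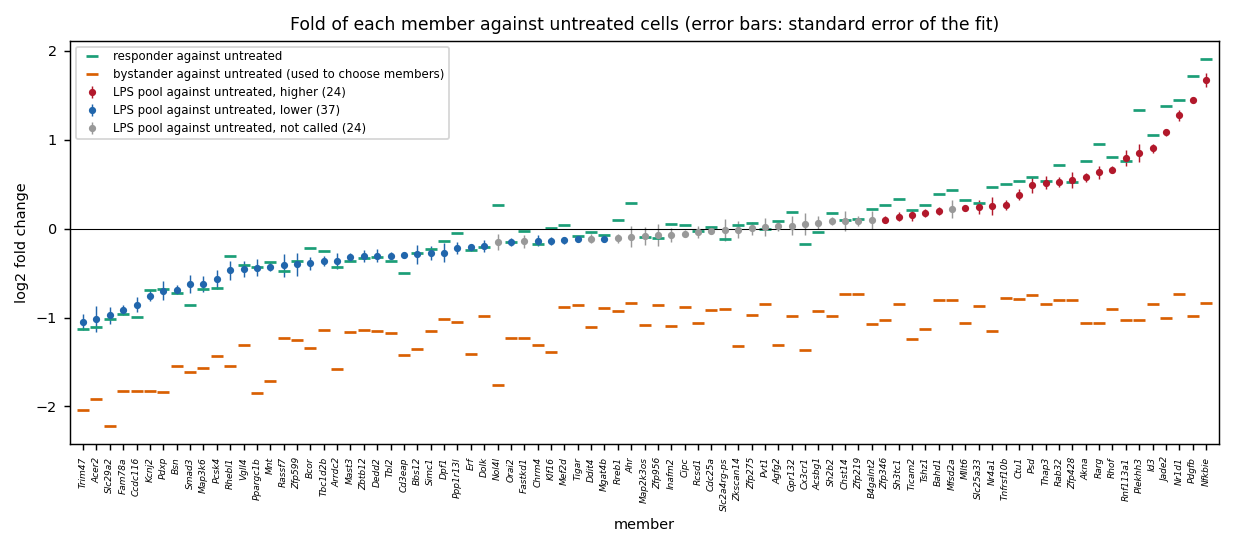
log2 fold of the LPS pool against untreated cells for each of the 85 members (points with the standard error of the fit, red for the 24 higher, blue for the 37 lower, grey for the 24 not called), with responders (green dashes) and bystanders (orange dashes) against untreated cells. Responder dashes follow the points from Trim47 at -1.05 to Nfkbie at 1.67, and bystander dashes stay below them throughout, as the rule requires.

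The 6 members raised most in the pool were Nfkbie, Pdgfb, Nr1d1, Jade2, Id3 and Plekhh3. Nfkbie (chr17:45555700-45563169), which encodes IkappaB epsilon, an inhibitor of NF-kappaB, was at 7.25, 7.42, 6.38 and 6.3 CPM in the untreated libraries, 22.2, 21.6, 22 and 21.2 CPM in the LPS pool, 27.3, 26.7, 24.7 and 24.1 CPM in responders and 4.12, 2.91, 3.76 and 4.39 CPM in bystanders. The groups did not overlap: bystanders were lowest, then untreated cells, the pool and responders. Pool levels were 3.18-fold above untreated cells (log2 1.67, SE 0.08, adjusted p = 8.76e-28), and bystanders were at 0.555 times untreated cells. Pdgfb (chr15:79995865-80024614), the B chain of platelet-derived growth factor, was at 56.2, 53.7, 54.4 and 52.5 CPM in the untreated libraries, 152, 146, 145 and 151 CPM in the LPS pool, 174, 183, 177 and 179 CPM in responders and 26.6, 25.2, 29.4 and 27.6 CPM in bystanders. It kept the same order without overlap and was 2.74-fold higher in the pool (log2 1.45, SE 0.03, adjusted p = 1.93e-45). The bystander mean of Pdgfb was 0.153 times the responder mean.

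Nr1d1 (chr11:98767932-98775377) encodes REV-ERB alpha, a nuclear receptor of the circadian clock that represses transcription. It was at 11.7, 11.8, 11.3 and 11.7 CPM in the untreated libraries, 27.9, 27.7, 29.7 and 27.7 CPM in the LPS pool, 32.4, 31.6, 31.6 and 31.3 CPM in responders and 6.64, 6.24, 7.41 and 7.42 CPM in bystanders, a 2.42-fold rise in the pool (adjusted p = 2.57e-27). Jade2 (chr11:51813448-51859011), a PHD-finger protein of histone acetyltransferase complexes, was at 56.5, 58, 54 and 59.4 CPM in the untreated libraries, 127, 119.9, 122 and 115 CPM in the LPS pool, 156, 145, 143 and 149 CPM in responders and 29.2, 27.6, 27.1 and 29.7 CPM in bystanders. That was a 2.12-fold rise (adjusted p = 1.2e-36). Id3 (chr4:136143822-136145392), an inhibitor of helix-loop-helix factors, ranged over 26.2, 27.4, 25.4 and 26 CPM in the untreated libraries, 51.1, 45.7, 50.8 and 49.3 CPM in the LPS pool, 53.4, 58.5, 52.4 and 53.2 CPM in responders and 13.9, 14.8, 13.8 and 15.7 CPM in bystanders. Its pool level was 1.87-fold that of untreated cells (adjusted p = 6.18e-25). For Plekhh3 (chr11:101162679-101171378), which has pleckstrin homology domains, the libraries held 5.53, 5.49, 7.2 and 6.43 CPM in the untreated libraries, 10.9, 11.2, 9.81 and 12.5 CPM in the LPS pool, 17.1, 14.2, 15.6 and 15.3 CPM in responders and 3.03, 2.36, 2.99 and 3.44 CPM in bystanders. The rise in the pool was 1.8-fold (adjusted p = 2.53e-11). In each of these 4 genes bystanders, untreated cells, pool and responders again stood in that order with no overlap.

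The 6 members lowered most in the pool were highest in untreated cells, and bystanders lay below the other LPS-treated groups. Trim47 (chr11:116105750-116110235), a ubiquitin ligase of the TRIM family, was at 16.4, 15.9, 16.7 and 15.2 CPM in the untreated libraries, 8.26, 8.07, 6.52 and 8.02 CPM in the LPS pool, 7.71, 7.41, 6.82 and 7.28 CPM in responders and 4.12, 3.64, 4.11 and 3.69 CPM in bystanders. It fell 2.07-fold in the pool (log2 -1.05, SE 0.09, adjusted p = 4.79e-17), and the bystander mean was 0.243 times the untreated one. Acer2 (chr4:86874348-86932524), a ceramidase that releases sphingosine, was at 7.39, 7.11, 6.58 and 7.05 CPM in the untreated libraries, 3.23, 3.7, 3.54 and 3.38 CPM in the LPS pool, 3.9, 2.12, 2.79 and 4.25 CPM in responders and 2.0, 1.58, 2.37 and 1.43 CPM in bystanders. The fall in the pool was 2.03-fold (adjusted p = 7.81e-09), and responder replicate 2 lay below bystander replicate 3. Slc29a2, described above, was the third by size.

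Kcnj2 (chr11:111066164-111076825) encodes an inwardly rectifying potassium channel that sets the resting potential of macrophages. Its levels were 35.7, 35.9, 35 and 38.2 CPM in the untreated libraries, 21.9, 20.9, 22.2 and 21 CPM in the LPS pool, 18.6, 25.5, 21.8 and 23.6 CPM in responders and 10.2, 9.46, 10.7 and 10.2 CPM in bystanders. Untreated cells stood clear of the rest, 1.69-fold above the pool (adjusted p = 3.36e-17). Fam78a (chr2:32045969-32087472) had 37.2, 39.3, 37 and 37.3 CPM in the untreated libraries, 20.7, 18.6, 21.8 and 18.8 CPM in the LPS pool, 18.2, 20.4, 20.4 and 18.8 CPM in responders and 10.6, 10.2, 10.4 and 11.1 CPM in bystanders, with a 1.89-fold lower pool (adjusted p = 1.52e-22). Ccdc116 (chr16:17139064-17147802) had 17.3, 16.9, 14.3 and 16.8 CPM in the untreated libraries, 8.26, 10.1, 8.5 and 9.15 CPM in the LPS pool, 8.04, 7.21, 7.92 and 9.71 CPM in responders and 4.81, 5.15, 4.42 and 4.22 CPM in bystanders, with a 1.81-fold lower pool (adjusted p = 3.39e-13). In these 3 genes the pool and responder libraries overlapped, and bystanders lay below both.

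Against the ungated pool, responders held more of 20 members (23.5%, with 16% of all genes) and less of 1 (1.18%, with 9.49%), and 64 were not called. The largest difference of a member was 1.4-fold, for Plekhh3. The median log2 difference was 0.05 over members and 0.01 over all genes. The rule sets no limit between responders and pool, but the pool, being ungated, holds low-scatter cells too. A gene chosen as low in bystanders may thus stand lower in the pool than in responders through that choice. The counts and the calls of single members in this contrast are therefore given as a description. Scaled from bystanders (0%) to responders (100%), the pool stood at a median of 93.1% over members and 80.1% over 546 other genes whose bystander mean was at most 0.6 times the responder mean. The rule bounds the pool of members from below, so these medians are a description. With library totals alone 4 members were lower in responders than in the pool, as the share of higher calls over all genes moved from 62.7% to 30.6%. Libraries with neural transcripts include just 1 of responders. Among them the median log2 difference of responders from the pool was 0.07 over members and 0.02 over all genes. Without LPS pool replicate 4, 2 members were lower, with 1070 of 12768 genes tested.

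Of the members with the largest difference between responders and the pool, Plekhh3 was 1.4-fold higher in responders (log2 0.49, SE 0.09, adjusted p = 1.46e-05) and Nol4l 1.34-fold (adjusted p = 0.000102). Rarg (chr15:102234938-102257522), a retinoic acid receptor, was at 11.7 ± 0.73 CPM in untreated cells, 18.1 ± 1.45 in the pool, 22.6 ± 0.488 in responders and 5.6 ± 0.417 in bystanders (mean ± SD, n = 4 each). Responders exceeded the pool 1.24-fold (adjusted p = 0.000208). Ahr (chr12:35497979-35534989), the aryl hydrocarbon receptor, was at 5.68 ± 0.941, 5.32 ± 0.492, 6.91 ± 0.437 and 3.13 ± 0.413 CPM in the same order. Its responder difference from the pool was log2 0.38 (SE 0.12, adjusted p = 0.0122), with adjusted p = 0.0564 without LPS pool replicate 3 and 0.0519 without responder replicate 2. At its low level this call rests on few counts.

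Cd3eap (chr7:19356007-19359483), a subunit of RNA polymerase I, was the member lower in responders than in the pool. It was at 97.6 ± 3.26 CPM in untreated cells, 79.6 ± 2.96 in the pool, 68.8 ± 1.83 in responders and 36.3 ± 0.838 in bystanders (SD, n = 4 each). The fall from pool to responders was 1.15-fold (log2 -0.21, SE 0.03, adjusted p = 3.51e-06). Smad3 (chr9:63646766-63757994), which carries TGF-beta signals to the nucleus, was at 10.5 ± 0.477, 6.71 ± 1.06, 5.77 ± 0.277 and 3.4 ± 0.263 CPM in that order of groups. It was 1.54-fold lower in the pool than in untreated cells (adjusted p = 1.1e-07). Its log2 difference of responders from the pool was -0.23 (adjusted p = 0.111, 0.0487 without LPS pool replicate 4 and 0.038 with library totals alone). For Cx3cr1 and Ccdc116 that difference was -0.23 (SE 0.13, adjusted p = 0.193) and -0.14 (SE 0.10, adjusted p = 0.341).

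Gene lists of the LPS response and of macrophages held 9 of the 85 members. Nfkbie was the 1 member among NF-kappaB inhibitors and feedback regulators. Of the other 22 genes of that list tested, 20 were higher and 1 lower in the pool than in untreated cells, and in bystanders 15 were higher and 5 lower. Ticam2 was the member among TLR4 and myddosome genes, where 11 of the other 21 were higher and 6 lower in the pool, and 14 higher and 2 lower in bystanders. Pdgfb stood among chemokines and cytokines. All 31 others of that list were higher in the pool, and in bystanders 23 were higher and 2 lower than in untreated cells. Nr4a1 stood among AP-1 and immediate-early factors, where 13 of 20 others were higher and 4 lower in the pool, and 12 higher and 3 lower in bystanders. Over all genes tested 34.1% were higher and 37.8% lower in the pool, and 34.1% and 32.9% in bystanders. The median log2 differences of the pool and of bystanders from untreated cells were 1.40 and 0.23 over the 22 feedback regulators, 0.18 and 0.28 over the 21 TLR4 genes, 4.64 and 2.14 over the 31 cytokine genes and 0.47 and 0.65 over the 20 immediate-early genes, with -0.03 and 0.01 over all genes. Each member of these lists was thus below untreated cells in bystanders by the rule, while the median of the rest of its list was above. Against the pool the other genes were often low in bystanders too. There 17 of the 22 feedback regulators were lower and 3 higher, and 30 and 1 of the 31 cytokine genes. Of the 20 immediate-early genes 9 were lower and 8 higher, and of the 21 TLR4 genes 6 and 11. Over all genes 32.9% were lower. The share of all genes that were higher was not counted, so nothing is read from the higher counts. The median log2 differences from the pool were -1.13, -2.48, -0.15 and 0.12 in that order, with 0.003 over all genes.

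Sh2b2 (chr5:136218147-136246595), an adaptor of tyrosine kinase receptors, was the member among Src-family and immune tyrosine kinase genes. Its level was 43.6 ± 1.17 CPM in untreated cells, 46.2 ± 1.91 in the pool, 49.4 ± 1.7 in responders and 21.9 ± 1.97 in bystanders (SD, n = 4 each), and of 23 others on that list 14 were higher and 5 lower in the pool and 16 and 5 in bystanders. Ddit4 (chr10:59949675-59951770), an inhibitor of mTORC1 made under stress, was at 28.7 ± 0.91, 26.6 ± 1.03, 28.1 ± 1.5 and 13.4 ± 0.366 CPM in that order. Of 21 other genes of the unfolded protein and integrated stress response, 14 were higher and 4 lower in the pool and 10 and 5 in bystanders. Tnfrsf10b (chr14:69767472-69784411), the TRAIL receptor and a p53 target, was at 23.2 ± 1.52, 27.8 ± 1.23, 32.8 ± 1.28 and 13.4 ± 0.851 CPM. Of 17 other p53 targets, 8 were higher and 6 lower in the pool and 6 and 8 in bystanders. Cx3cr1 stood among macrophage identity markers, where 9 of 16 others were higher and 6 lower in the pool and 10 and 4 in bystanders. In the pool and in bystanders the median log2 differences from untreated cells were 0.45 and 0.26 over the 23 kinase genes, 0.39 and 0.07 over the 21 stress genes, 0.04 and -0.13 over the 17 p53 targets and 0.17 and 0.26 over the 16 macrophage markers.

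Cx3cr1 and Gpr132 shared the list of purinergic and other G-protein-coupled receptors. Gpr132 (chr12:112850873-112868416), a lipid-sensing receptor, was at 8.26 ± 0.972 CPM in untreated cells, 8.44 ± 0.654 in the pool, 9.38 ± 0.675 in responders and 4.15 ± 0.782 in bystanders (SD, n = 4 each). Of the 25 others tested, 17 were higher and 4 lower in the pool than in untreated cells, and 13 were higher and 9 lower in bystanders, with median log2 differences of 1.00 and 0.29. The complement receptor C3ar1 went the other way, at 161 ± 2.56 CPM in untreated cells and 559 ± 7.17 CPM in bystanders. C5ar1 was at 191 ± 1.75 CPM in untreated cells, 280.4 ± 7.02 in the pool, 307 ± 7.07 in responders and 158 ± 4.4 in bystanders. Gpr84 rose from 13.8 ± 1.35 to 199 ± 3.14 CPM in the pool and was at 8.46 ± 1.9 CPM in bystanders, so it too was lowest there, yet its bystander ratio missed the limit. Adgre5 was at 120.4 ± 3.91 CPM in untreated cells, 89.5 ± 6.57 in the pool, 93.0 ± 3.53 in responders and 97.7 ± 4.37 in bystanders.

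By role, the median ratio of bystanders to the lowest other group was 0.552 over the 32 regulators of transcription, 0.530 over the 21 signalling genes, 0.472 over the 5 channels and transporters, 0.579 over the 10 enzymes, 0.551 over the 3 non-coding transcripts and 0.513 over the other 14. Of the regulators of transcription 12 were higher and 13 lower in the pool than in untreated cells, and 12 were higher in responders than in the pool. Over all genes 34.1% were higher and 37.8% lower in the pool, and 16% were higher in responders than in the pool. Of the signalling genes 7 were higher and 8 lower in the pool. Among enzymes 1 was higher (Ctu1, which modifies transfer RNA) and 6 were lower, among them Tigar, which lowers glycolytic flux, and Mgat4b, which branches N-glycans. Of the transporters Slc25a33, a mitochondrial pyrimidine carrier, was higher and Orai2, a calcium channel subunit, lower, as were Slc29a2 and Kcnj2. The non-coding Pvt1 did not pass the test, nor did Map2k3os or Slc2a4rg-ps. The last is named as a pseudogene and Map2k3os as an antisense transcript, and the strand setting of the counts is not given in the sources used here, so their values are uncertain.

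The limit of 0.6 does not fall in a gap. Just inside it stood Rassf7 at 0.598, Zfp956 at 0.598 and Zfp219 at 0.599, and just outside stood Mtrf1l at 0.605, Mapk7 at 0.608 and Ciart at 0.610. At a limit of 0.5 the rule took 31 genes and at 0.7 it took 210. The 6 libraries with neural transcripts include just 1 each of untreated cells and responders. In them 65 of the 85 members kept a ratio of at most 0.6, with a highest ratio of 0.762. In the other 10 libraries 79 did, with a highest ratio of 0.661. With library totals alone bystanders had the lowest mean for all 85, and 52 stayed at or under 0.6.

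Members had transcripts rich in G and C. The median GC content of the GENCODE M21 transcript was 55.6% over the 82 members with a value and 50.2% over 9296 genes with at least 5 CPM in untreated cells. When those genes were split into 5 equal groups by GC content, the groups held 4, 6, 8, 25 and 39 members from the lowest to the highest, or 0.215% of genes in the lowest and 2.1% in the highest. Over the same groups the median log2 ratio of bystanders to untreated cells fell step by step from 0.04 to -0.08. After each ratio was adjusted for the trend over GC content, 63 of the 82 members stayed at or under 0.6 and the highest ratio of a member was 0.677. This adjustment was chosen after seeing the data. Members had a median of 7 exons against 10, and 5 of 82 had a single exon (6.1%, with 1.5% of the 9296 genes). Median transcript length was 2873 bases in members and 2971 bases in all. The AU-rich pentamer ATTTA was in the 3' UTR of 59.3% of members and 66.8% of all genes, and the longer TATTTAT in 28.4% and 27.8%.

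**Figure D4:**
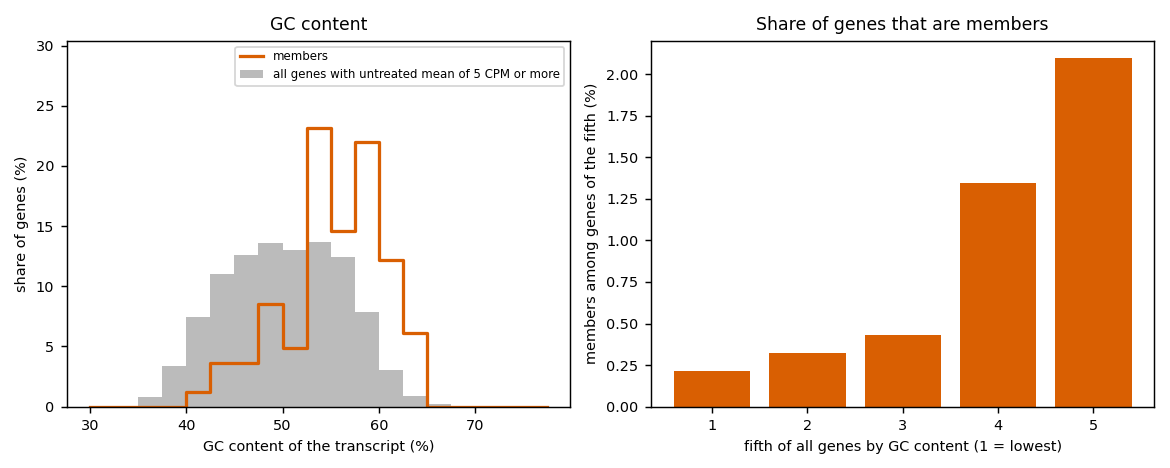
GC content of transcripts in percent (left) for the 82 members with a value (orange line) and for 9296 genes with an untreated mean of at least 5 CPM (grey), as shares of each set, and the percentage of genes that are members in each of 5 equal groups by GC content (right, bars from 0). The member line lies to the right of the grey bars, and the share of members rises from 0.215% in the lowest group to 2.1% in the highest.

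Members lay on 20 chromosomes, and 5 pairs lay within 100000 bases of each other on GRCm38.p6. Cd3eap and Ppp1r13l, which encodes a p53-binding inhibitor, were 240 bases apart, so the Cd3eap stretch printed above spans most of the sequence between them. Bahd1, a heterochromatin protein, and Chst14, a dermatan sulfotransferase, were 1968 bases apart. Dedd2 and Erf were 21945, Mast3 and Arrdc2 30080 and Orai2 and Sh2b2 47449 bases apart. Exons of 18 of 82 members overlap those of another protein-coding gene, 14 of them on the opposite strand, and counts of such genes may be mixed. Among partners with values, only Cntnap1, which overlaps Plekhh3, had a ratio of bystanders to the lowest other group under 0.6. It was at 1.41 CPM in untreated cells, 4.48 in the pool, 5.46 in responders and 0.839 in bystanders. Several others were lowest in bystanders by less. Nfkb2, which overlaps Psd, stood at 51.6, 153, 171 and 41.6 CPM in that order of groups. Thra, which overlaps Nr1d1, was at 15.99, 22.97, 25.3 and 15.6 CPM, the same ranking of groups as Nr1d1. The ratio was 0.882 for Ydjc, which overlaps Ccdc116, and 0.915 for Trim65, which overlaps Trim47 on the same strand. Nup214, which overlaps Fam78a, and Ercc1, which overlaps Cd3eap, were not lowest in bystanders, with ratios of 1.18 and 1.04. The part of mixed counts in the member values was not tested.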

How the data were processed

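RNA of 16 libraries in 4 groups of 4 was sequenced. The deposited table gives raw counts for every gene as the authors made them. It holds 27179 Entrez identifiers, 3 empty columns and 0 columns of other samples. The submitters' processing notes name HISAT2 2.2.2 and featureCounts 2.1.1, with cutadapt 3.7 and fastp 1.1.0, and the build GRCm38 (mm10). For the annotation, the strand setting and multi-mapping reads, the sources used here name no setting. RefSeq (GRCm38.p6) gave symbols and coordinates for 25275 identifiers. Identifiers without a match (1904, with 0.399% of counts) were kept.

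Counts were fitted with edgeR 4.0.16 (limma 3.58.1, R 4.3.3): filterByExpr, TMM scaling and a robust quasi-likelihood model over all 16 libraries with 1 mean per group. Tests were two-sided with Benjamini-Hochberg adjustment over 12589 genes, and an adjusted p under 0.05 was a call. Adjusted p-values printed are from it unless another scaling or set of libraries is named beside them, and levels are TMM-scaled CPM. The fit was also run on simulated counts with 1 spread for all genes and no neural transcripts added to single libraries. These libraries differ from that, so nothing about them is read from it.

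The members, the 26 gene lists and the tests were chosen with earlier results of these data known. Genes were named by rule: the 14 lowest ratios, the 6 highest and 6 lowest folds of the LPS pool against untreated cells, the 4 highest and 4 lowest of responders against the pool, members of a list, the 3 genes nearest the limit on each side, and the 4 highest other genes of a list with 2 members. Members named for role, neighbourhood or overlap were picked after their values were seen. GC content, UTRs and overlaps came from GENCODE M21 (GRCm38), and promoters from RefSeq. Libraries were split by Stmn2 at 1 CPM, because the summed neural list did not separate them.

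Replicates differed beyond sampling noise (24 pairs, chi-square 1.62 to 3.13 per degree of freedom). Same-numbered responder and untreated libraries deviated together (correlations 0.169 to 0.605 over genes in all 4 pairs), which met the rule used for a pairing. The highest value joined replicate 1 of both, the only libraries of these groups with Stmn2 above 1 CPM. Libraries of unlike number in these groups correlated at -0.33 to 0.167, so the highest of them came close to the lowest same-numbered pair. LPS pool replicates 3 and 4, also above 1 CPM of Stmn2, correlated with untreated replicate 1 at 0.432 and 0.479. The part of neural transcripts in these correlations was not tested. Pairing with bystanders was not checked. The labels do not name a pairing. Alternatives were library totals, DESeq2 1.42.0, no filter, a replicate block, 2-group fits, both library sets, leaving out each library, other limits and a GC adjustment.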

Additional observations from a re-analysis of the deposited data

Results flagged for a closer look

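Of 100 groups of 4 libraries checked, 6 held a library far from the other 3 by Dixon's test, and chance flags about 1 in 20 groups. Cx3cr1 was at 5.82 CPM in responder replicate 3, with 4.54 to 4.76 CPM in the others. Id3 was at 58.5 CPM in responder replicate 2, with 52.4 to 53.4 CPM in the others. Nr1d1 was at 29.7 CPM in LPS pool replicate 3, with 27.7 to 27.9 CPM in the others, and Trim47 was low in the same library, at 6.52 CPM with 8.02 to 8.26 CPM in the others. Fam78a was at 39.3 CPM in untreated replicate 2, with 37.0 to 37.3 CPM in the others. Ccdc116 was at 14.3 CPM in untreated replicate 3, with 16.8 to 17.3 CPM in the others.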

How the results depend on the processing

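The number of members, 85, was 67 with library totals alone (52 shared), 83 with DESeq2 size factors, 119 at a minimum of 1 CPM, 38 at 20 CPM, 31 at a limit of 0.5, 210 at 0.7, 68 after GC adjustment, 94 in libraries without neural transcripts (79 shared) and 77 to 86 without 1 bystander library. Scaling mattered most for the contrasts with untreated cells. Library totals alone moved the median log2 difference of all genes from -0.03 to -0.36 for the pool and from -0.02 to -0.41 for responders. Calls in the pool became 13 higher and 66 lower, in responders 15 and 59, and 4 members were lower in responders than in the pool. In that scaling the pool difference turned negative for Agfg2 (-0.30), Ticam2 (-0.18), Cx3cr1 (-0.27), Nr4a1 (-0.0762), Tshz1 (-0.15), Sh2b2 (-0.24), Gpr132 (-0.29), Tnfrsf10b (-0.0628) and Zfp219 (-0.24). The responder difference from untreated cells turned negative for Nol4l (-0.12), Agfg2 (-0.29), Zkscan14 (-0.34), Ticam2 (-0.17), Klf16 (-0.38), Tshz1 (-0.12), Ahr (-0.0943), Sh2b2 (-0.20) and Zfp219 (-0.28). Among named genes whose direction did not turn, calls gained there were Nol4l (-0.48), Zkscan14 (-0.34), Ahr (-0.42), Ddit4 (-0.44) and Zfp956 (-0.40) in the pool and Cx3cr1 (-0.56), Ddit4 (-0.42) and Zfp956 (-0.49) in responders, and Nr4a1 in responders lost its call (0.0819). For responders against the pool Smad3 gained a call (-0.29), and Klf16 (0.0814), Nr1d1 (0.11) and Id3 (0.0913) lost theirs. In the 6 libraries with neural transcripts 24 members were lower in the pool, 6 higher and 0 lower in responders than in the pool, and Ticam2 in the pool was at -0.00125. Members lower in responders than in the pool numbered 1 to 2 when 1 library was left out.

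The replicate block changed none of the 108 calls of named genes: with it 24 members were higher and 38 lower in the pool, 29 and 33 in responders, and 20 and 1 in responders against the pool. Same-numbered libraries correlated at -0.47 to 0.28 for the pool and untreated cells and -0.46 to 0.29 for responders and the pool, so there the numbers are only shared. The block fits 1 effect per replicate number over all 4 groups. It cannot fully take up a pairing that only some groups share, so nothing about pairing is concluded from it. Members under 10 CPM in untreated cells (25) have the fewest counts and the widest errors.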
